A study of Mus musculus with 12 samples.

Results

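The proteasome is the barrel-shaped protease that degrades ubiquitin-tagged proteins and supplies most of the peptides shown on MHC class I. All 48 symbols of the gene table that begin with Psma, Psmb, Psmc, Psmd, Psme, Psmf or Psmg and end in a number were taken as members by this symbol rule, out of 24493 symbols in all. They were followed across 3 EgfrKO, 3 Klf5KO, 3 Smad4KO and 3 WT libraries of RNA from 6649c2 mouse pancreatic tumour cells. All groups share the same handling: the strain label is C57BL/6, the cells grew as tumours implanted under the skin, and tumour cells were sorted before RNA was extracted. The genotype labels name Egfr (the epidermal growth factor receptor), Klf5 (an epithelial zinc finger transcription factor) and Smad4 (the common mediator of TGF-beta signals) as the genes knocked out, and WT carries none of the 3. The sources used here do not state the sort gate, the age of the host mice, how the genes were disrupted, or whether a knockout line is 1 clone or a mixture. The labels also do not tie the 3 libraries of a genotype to separate tumours or animals, so every p-value measures the spread between these libraries, which may be technical.

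In the proteasome, a 20S core of stacked rings holds the proteolytic sites, and a 19S cap recognises, unfolds and feeds in the substrate. Its outer rings are built of alpha subunits (Psma genes) and its inner rings of beta subunits (Psmb genes), of which Psmb6, Psmb7 and Psmb5 encode the catalytic subunits beta1, beta2 and beta5. Interferon gamma induces Psmb9, Psmb10 and Psmb8, whose products (also known as LMP2, MECL-1 and LMP7) replace beta1, beta2 and beta5 in newly made particles and give the immunoproteasome. Interferon gamma also induces Psme1 and Psme2, which encode the alpha and beta chains of the PA28 activator. In tumour cells the immunoproteasome is best known for its part in making peptides for CD8 T cells. The 41 other members that passed the filter on low values were constitutive subunits, assembly chaperones and other regulators, and are called the constitutive set here.

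The 5 inducible genes lie at 3 places in the mouse genome (GRCm38.p6, RefSeq). Psmb9 (chr17:34182030-34187330) and Psmb8 (chr17:34198195-34201454) flank Tap1, which encodes a subunit of the transporter that carries peptides into the endoplasmic reticulum. The annotated span of Psmb9 is 225 bases from that of Tap1, Tap1 is 969 bases from Psmb8, and Psmb8 is 3024 bases from Tap2, the gene of the other transporter subunit. Psme1 (chr14:55578494-55581527) is 5912 bases from Psme2 (chr14:55587440-55591101), and Psmb5 (chr14:54614120-54617995) is 7314 bases from Psmb11, both on the same chromosome as the PA28 pair. Psmb10 (chr8:105935728-105938392) stands apart from the others.

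Promoter windows of 250 bases before to 50 bases after the start used in the RefSeq promoter table are shown for 5 members, because Psmb8, Psmb9 and Psme1 rose in all knockouts while Psmb5 and Psmb6 are the constitutive partners of Psmb8 and Psmb9. Of the 48 members, 40 had a window in the RefSeq table of GRCm38.p6. Each is printed 5′ to 3′ on the strand of the gene. In Psmb8 (chr17:34197945-34198244, plus strand) capitals mark a match to the gamma-activated site TTCNNNGAA at -97 to -89 from the start. In Psme1 (chr14:55578244-55578543, plus strand) they mark a match on the opposite strand to the core of the interferon-stimulated response element, a pair of GAAA units parted by 2 bases, at 9 to 18 from the start. In Psmb9 (chr17:34187281-34187580, minus strand) the first run of capitals is 25 bases of the annotated span of Tap1, read in the other direction. The second run is 50 bases of Psmb9, and the window spans the whole interval between the genes. In Psmb5 (chr14:54617946-54618245, minus strand) and Psmb6 (chr11:70525107-70525406, plus strand) capitals mark a match to the antioxidant response element core TGACNNNGC, the kind of site bound by Nfe2l1 and Nfe2l2, at -47 to -39 and at -9 to -1 from the start of each window's table entry. For Psmb6 that start lies inside the annotated gene (chr11:70525324-70527858), and so does the match, while the other 4 windows are placed on the annotated gene starts.
Psmb8: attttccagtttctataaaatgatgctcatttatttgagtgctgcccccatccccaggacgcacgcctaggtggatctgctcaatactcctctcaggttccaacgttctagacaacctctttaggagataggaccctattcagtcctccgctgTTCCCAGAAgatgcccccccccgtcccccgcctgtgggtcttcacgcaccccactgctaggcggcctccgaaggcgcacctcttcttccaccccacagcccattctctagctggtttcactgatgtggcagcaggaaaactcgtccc
Psmb9: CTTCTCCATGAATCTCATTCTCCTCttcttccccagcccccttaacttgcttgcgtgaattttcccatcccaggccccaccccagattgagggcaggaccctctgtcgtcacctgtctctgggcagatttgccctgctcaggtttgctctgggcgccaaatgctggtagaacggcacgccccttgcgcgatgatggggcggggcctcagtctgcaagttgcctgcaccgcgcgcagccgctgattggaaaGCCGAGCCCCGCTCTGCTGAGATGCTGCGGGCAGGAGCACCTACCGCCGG
Psme1: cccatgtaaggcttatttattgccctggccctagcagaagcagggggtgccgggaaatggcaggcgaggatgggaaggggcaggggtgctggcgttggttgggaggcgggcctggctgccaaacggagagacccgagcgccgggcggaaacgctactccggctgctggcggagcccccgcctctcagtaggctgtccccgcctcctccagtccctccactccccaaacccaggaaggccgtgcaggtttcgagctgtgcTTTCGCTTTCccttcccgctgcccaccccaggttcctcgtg
Psmb5: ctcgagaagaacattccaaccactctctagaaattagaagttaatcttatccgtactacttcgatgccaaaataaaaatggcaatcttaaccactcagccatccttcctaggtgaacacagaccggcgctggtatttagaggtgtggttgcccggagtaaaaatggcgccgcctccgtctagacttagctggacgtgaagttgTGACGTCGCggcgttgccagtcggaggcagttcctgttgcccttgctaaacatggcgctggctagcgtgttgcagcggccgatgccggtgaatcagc
Psmb6: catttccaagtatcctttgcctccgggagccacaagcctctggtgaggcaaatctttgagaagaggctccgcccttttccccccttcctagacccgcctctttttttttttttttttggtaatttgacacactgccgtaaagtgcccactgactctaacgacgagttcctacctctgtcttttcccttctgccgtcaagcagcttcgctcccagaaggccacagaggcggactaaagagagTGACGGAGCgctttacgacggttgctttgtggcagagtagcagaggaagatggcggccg

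Both strands were searched for these 3 letter patterns, which do not overlap each other in the matches marked. The gamma-activated site matched in 8.3% of all 32851 promoter windows of that table and in those of Psmb8, Psmd2 and Psmg1 among the members. The interferon-stimulated response element core matched in 3.44% of all windows and in those of Psmb3, Psmd4, Psmd9, Psme1 and Psmg4. The antioxidant response element core matched in 12.4% of all windows and in those of Psmb5, Psmb6, Psmc6, Psmd12, Psmd9 and Psme4. The windows of Psmb9, Psmb10 and Psme2 hold none of these 3 patterns, so of the inducible genes only Psmb8 and Psme1 had a match. These matches are descriptions of the sequence and were not tested for function.

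The labels and the makeup of the libraries were checked first. Egfr measured 4.29 ± 0.76 TPM in EgfrKO libraries and 13.1 ± 0.85 TPM in WT libraries, while Smad4 measured 30.7 ± 2.39 TPM in Smad4KO libraries and 75.5 ± 4.45 TPM in WT libraries (SD, n = 3 each). Klf5 measured 93.8 ± 6.35 TPM in Klf5KO libraries and 112 ± 16.8 TPM in WT libraries (SD, n = 3 each; exact permutation p = 0.2). Its log2 difference was -0.25 ± 0.10 (SE; limma, adjusted p = 0.0411), under the threshold used below but lost under several alternatives given at the end. The Klf5KO label is used as given and its transcript level does not check it. TPM is a share of the transcripts of a library after allowing for transcript length and keeps no read depth, so the depth behind each value is unknown. Summed TPM of 6 epithelial markers (Krt8, Krt18, Krt19, Epcam, Cdh1 and Muc1) was 4594 to 8874 in the 12 libraries, and lowest in the Klf5KO libraries, at 4594 to 5128. Most of this sum was keratin. Epcam had mean levels of 1.30 TPM in EgfrKO, 0.54 TPM in Klf5KO, 39.5 TPM in Smad4KO and 13.5 TPM in WT libraries, and the directions of all 6 are counted below. Markers of other cells were present too: the 8 macrophage genes, led by Lyz2 and C1qa, summed to 182 to 1668 TPM and none was at 0. In bulk RNA, fewer cells of a type and less RNA per cell cannot be told apart. Smad4KO replicate 2 stood apart with the lowest macrophage sum, 182 TPM against 795 and 804 TPM in the other Smad4KO libraries. Klf5KO libraries had the highest sums of 7 fibroblast markers, led by Col1a1, at 284 to 599 TPM, against 50.4 to 130 TPM in WT libraries. All Klf5KO libraries lay above all others, so with this list as a covariate the list and the Klf5KO label cannot be told apart. The share of TPM in ribosomal protein genes was 12.6% to 14.01% in Klf5KO libraries, against 19.7% to 20.1% in WT libraries. Fold changes below are differences of mean log2(TPM + 1), each with its standard error (SE), and a member is called where limma's adjusted p is under 0.05. The median over all 13662 genes tested was itself above 0 against WT, at 0.14 in EgfrKO, 0.31 in Klf5KO and 0.10 in Smad4KO libraries, and median-of-ratios scaling lowered the differences by 0.14, 0.34 and 0.10.

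Of the 48 members, 46 were transcribed at 13.2 TPM or more in every library. The other 2 did not reach the filter of 1 TPM in at least 3 libraries. Psma8, the alpha subunit of testis, was listed at 0 to 0.13 TPM, and Psmb11, the catalytic subunit of thymic cortical epithelium, had 0.38 to 0.87 TPM. Psme1 and Psmb4, a structural beta subunit, had the highest mean levels over the 12 libraries, at 378 and 342 TPM. Psmf1 (PI31, a proteasome regulator) and Psmd9 (an assembly chaperone of the 19S base) had the lowest, at 15.9 and 17.9 TPM. The members together took 0.77% to 0.81% of all TPM in EgfrKO, 0.75% to 0.77% in Klf5KO, 0.73% to 0.74% in Smad4KO and 0.55% to 0.60% in WT libraries, so the 3 WT libraries were the lowest. In the plot of mean levels by role, PI31 and the assembly chaperones other than Psmg4 lie below all constitutive 20S and 19S subunits in every genotype.

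**Figure D1:**
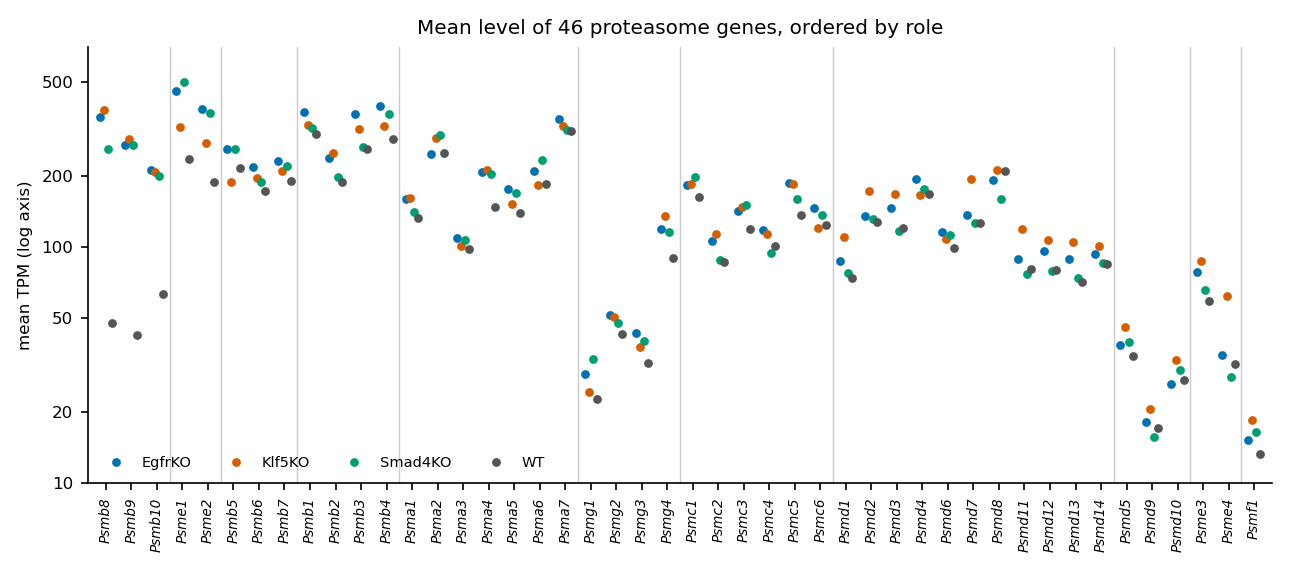
Mean TPM (log axis) of the 46 proteasome genes that passed the filter, 1 point per genotype (n = 3 libraries each), ordered by role from the inducible catalytic subunits on the left to PI31 on the right. WT points of Psmb8, Psmb9 and Psmb10 lie at 42.5 to 63.2 TPM, far below the knockout points of the same genes at 199 to 377 TPM.

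The inducible catalytic subunits were higher in every knockout library than in every WT library. Psmb8 had 368, 348 and 349.8 TPM in EgfrKO, 426, 315 and 391 TPM in Klf5KO and 269, 236 and 271 TPM in Smad4KO libraries, against 69.8, 47.6 and 25.8 TPM in WT libraries. The ratio of means to WT was 7.45 in EgfrKO, 7.91 in Klf5KO and 5.42 in Smad4KO libraries. On the log2 scale Psmb8 rose by 2.98 ± 0.26 (SE; limma, adjusted p = 6.22e-06) in EgfrKO, 3.05 ± 0.26 (adjusted p = 2.29e-06) in Klf5KO and 2.52 ± 0.26 (adjusted p = 9.93e-06) in Smad4KO libraries. On that scale the WT libraries differed among themselves more than the libraries of any knockout did, yet the highest WT library, at 69.8 TPM, was below the lowest knockout library, at 236 TPM.

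Psmb9 had 295, 262 and 249 TPM in EgfrKO, 292, 265 and 302 TPM in Klf5KO and 294, 240.5 and 278 TPM in Smad4KO libraries, against 60.9, 42.0 and 24.5 TPM in WT libraries. It rose by 2.72 ± 0.23, 2.81 ± 0.23 and 2.73 ± 0.23 (SE) in EgfrKO, Klf5KO and Smad4KO libraries in that order (limma, adjusted p = 5.82e-06, 2.04e-06 and 2.35e-06). Knockout and WT libraries did not overlap, and WT replicate 3 was again the lowest and WT replicate 1 the highest WT library. Psmb10, which lies on another chromosome, had 211, 209 and 216 TPM in EgfrKO, 229, 190.2 and 200.4 TPM in Klf5KO and 205, 184 and 208 TPM in Smad4KO libraries, against 74.7, 63.6 and 51.3 TPM in WT libraries. Its ratio to WT was smaller, 3.35, 3.27 and 3.15 in the same order. Its rise of 1.75 ± 0.11, 1.70 ± 0.11 and 1.65 ± 0.11 was called in each (limma, adjusted p = 1.07e-06, 4.55e-07 and 4.01e-07). All 3 genes kept their call and direction against WT under median-of-ratios and quantile scaling, without each library in turn, and with a leukocyte, macrophage or fibroblast list as a covariate. In the smallest of these fits, Klf5KO with the fibroblast list, the differences were 1.72 for Psmb8, 1.81 for Psmb9 and 1.16 for Psmb10. In the wider GENCODE M21 annotation, exons of Psmb9 share 5.79% of their bases with Tap1 on the other strand, and those of Psmb8 share 14.7% with the antisense model Gm20496, so reads there could be split if strand was not used.

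**Figure D2:**
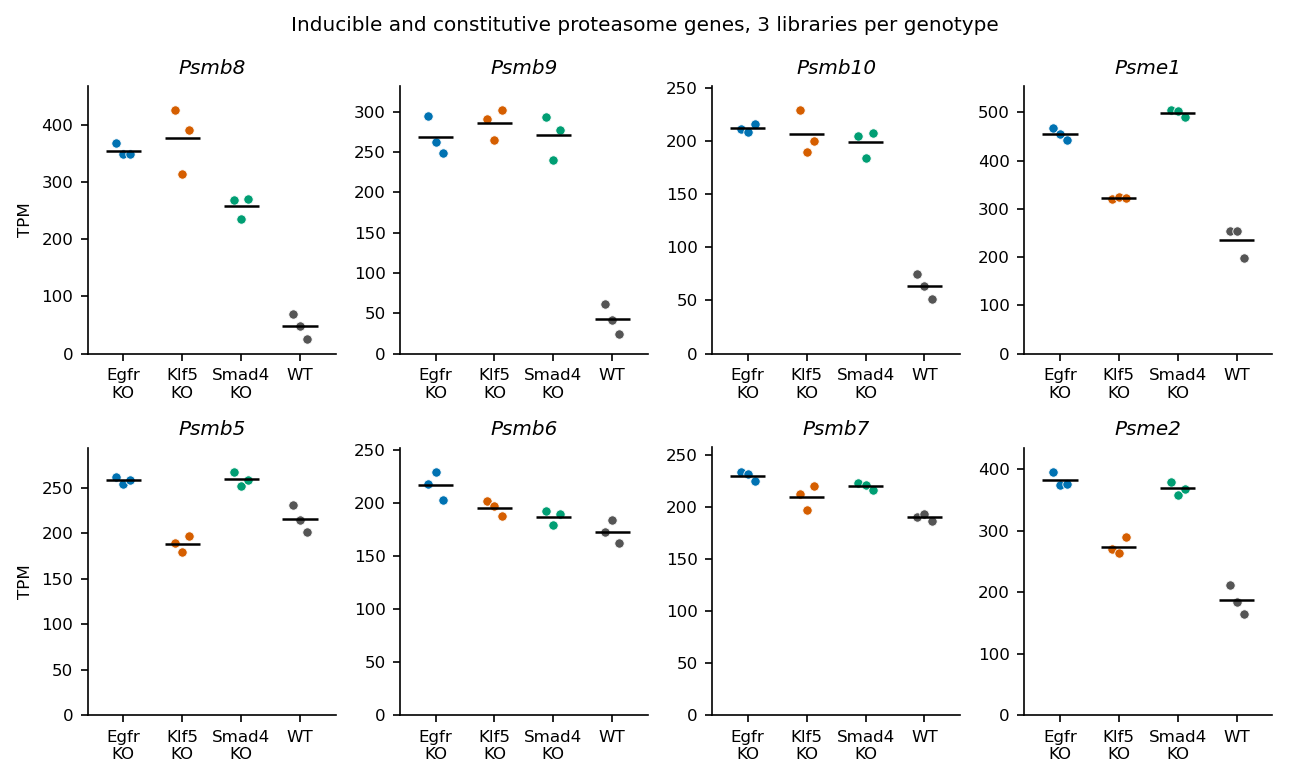
TPM of the 5 inducible genes and the 3 constitutive catalytic genes, 1 point per library (n = 3 per genotype) with a line at the mean, each axis starting at 0. Psmb8, Psmb9 and Psmb10 separate all knockout libraries from all WT libraries, while Psmb5 is lowest in Klf5KO libraries, at 179 to 197 TPM.

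Between knockouts, none of these 3 genes passed the threshold in any of the 3 comparisons (limma, 0 of 3 called in each, and 0 of 3 at an unadjusted p under 0.05). Psmb8 came closest: its Klf5KO libraries (315 to 426 TPM) and EgfrKO libraries (348 to 368 TPM) did not overlap its Smad4KO libraries (236 to 271 TPM). The differences were 0.53 ± 0.26 for Klf5KO over Smad4KO (SE; limma, adjusted p = 0.0907) and 0.46 ± 0.26 for EgfrKO over Smad4KO (adjusted p = 0.198). These standard errors draw on the spread of the WT libraries as well. A fit of only the groups compared called both (limma, adjusted p = 0.00564 and 0.00152), as did the fit without WT replicate 3 (0.00551 and 0.0251). After median-of-ratios scaling the differences were 0.28 and 0.41 and with the leukocyte list as a covariate 0.14 and 0.15, and none was called. With the fibroblast list as a covariate they turned to -1.28 and -0.23, and neither was called. The sums of that list did not overlap between these groups. They were 284 to 599 TPM in Klf5KO, 113 to 122 TPM in EgfrKO and 46.2 to 72.7 TPM in Smad4KO libraries. List and genotype thus cannot be told apart here. Psmb9 differed by no more than 0.09 on the log2 scale between any 2 knockouts, with an SE of 0.23, and Psmb10 by no more than 0.09 with an SE of 0.11.

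The constitutive partners moved little by comparison. Psmb5 (beta5) had 262, 254 and 258 TPM in EgfrKO, 189, 179 and 197 TPM in Klf5KO and 268, 252 and 258 TPM in Smad4KO libraries, against 232, 214 and 201 TPM in WT libraries. It rose by 0.26 ± 0.05 in EgfrKO and 0.27 ± 0.05 in Smad4KO libraries (SE; limma, adjusted p = 0.00273 and 0.00167), though neither was called after median-of-ratios scaling. Psmb5 was the one member called lower in Klf5KO than in WT libraries, at -0.19 ± 0.05 (limma, adjusted p = 0.00836). After median-of-ratios scaling 15 of the 46 members were called lower there, where 27.5% of all genes were. The Psmb5 difference was -0.55 after median-of-ratios and -0.30 after quantile scaling, and was not called, at -0.37, with the fibroblast list as a covariate. Its Klf5KO libraries lay below the libraries of all other genotypes. Psmb6 (beta1) had 203 to 229.6 TPM in EgfrKO, 188 to 202 TPM in Klf5KO and 179 to 193 TPM in Smad4KO libraries, against 162 to 184 TPM in WT libraries. Psmb7 (beta2) had 225 to 234, 197 to 219.6 and 216 to 223 TPM in EgfrKO, Klf5KO and Smad4KO libraries in that order, against 186 to 193 TPM in WT libraries. Both rose in EgfrKO libraries (0.33 ± 0.06 and 0.28 ± 0.04; limma, adjusted p = 0.00121 and 0.000496). They also rose in Klf5KO libraries (0.18 ± 0.06 and 0.14 ± 0.04; limma, adjusted p = 0.0193 and 0.0147), but the direction there turned to -0.18 and -0.22 after median-of-ratios scaling. In Smad4KO libraries Psmb7 rose (0.21 ± 0.04; limma, adjusted p = 0.00198), while Psmb6 gave 0.12 ± 0.06 (adjusted p = 0.127). After median-of-ratios scaling Psmb7 was called in neither EgfrKO nor Smad4KO libraries (0.12 and 0.10). Psmb5 shares 12.1% of its exon bases with the microRNA model Mir686 and Psmb7 shares 11.8% with Nek6 on the other strand.

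Ratios of paired subunits within a library do not change when the library is scaled by a single factor. Psmb8 over Psmb5 was 1.35 to 1.40 in EgfrKO, 1.76 to 2.25 in Klf5KO and 0.94 to 1.05 in Smad4KO libraries, against 0.13 to 0.30 in WT libraries. Psmb9 over Psmb6 was 1.14 to 1.35 in EgfrKO, 1.34 to 1.60 in Klf5KO and 1.34 to 1.52 in Smad4KO libraries, against 0.15 to 0.35 in WT libraries. Psmb10 over Psmb7 was 0.90 to 0.96 in EgfrKO, 0.91 to 1.08 in Klf5KO and 0.84 to 0.96 in Smad4KO libraries, against 0.28 to 0.39 in WT libraries. In WT libraries the constitutive transcript was thus the more abundant of each pair, whereas Psmb8 and Psmb9 exceeded their partners in EgfrKO and Klf5KO libraries and Psmb10 and Psmb7 were nearly level in all knockouts. All 9 differences from WT gave an exact two-sided permutation p of 0.1, the smallest that 3 libraries against 3 allow, and 0.1 after adjustment over the 9. The mean log2 difference ranged from 1.46 ± 0.16 (SE) for Psmb10 over Psmb7 in Smad4KO to 3.28 ± 0.37 for Psmb8 over Psmb5 in Klf5KO libraries. Psmb8 over Psmb5 did not overlap between any 2 genotypes, with Klf5KO highest, then EgfrKO, then Smad4KO, then WT. As a share of the summed TPM of all 6 catalytic genes, the inducible ones took 53.4% to 55.03% in EgfrKO, 57.3% to 61.1% in Klf5KO and 50.3% to 53.2% in Smad4KO libraries, against 15.6% to 25.7% in WT libraries.

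**Figure D3:**
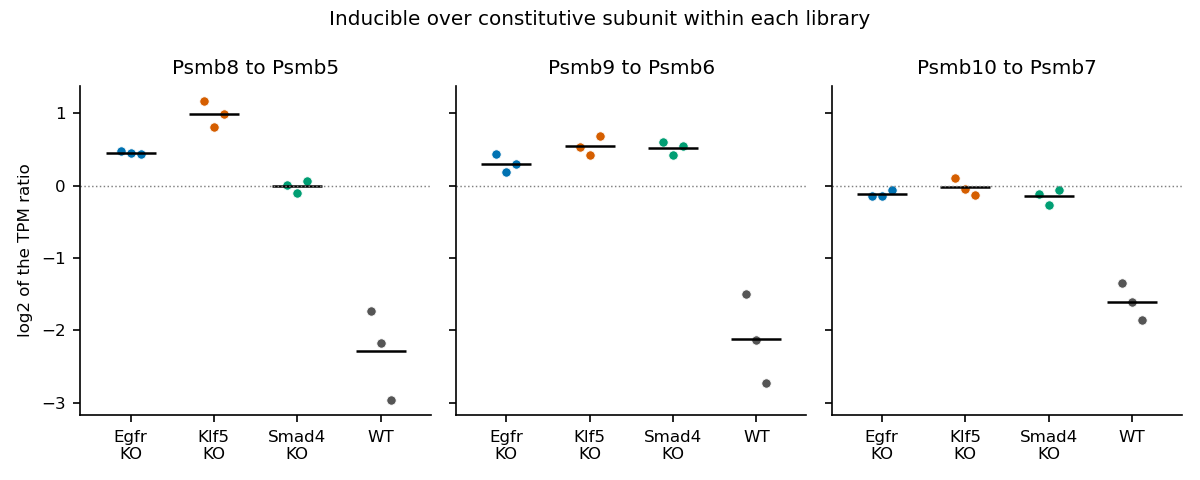
Log2 of the TPM ratio of each inducible catalytic subunit to its constitutive partner, 1 point per library (n = 3 per genotype) with a line at the mean; the dotted line at 0 is equal abundance. The knockout libraries lie between -0.26 and 1.17 and the WT libraries between -2.96 and -1.35.

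The PA28 genes formed another pattern, in which Klf5KO libraries stood between the others and WT. Psme1 (PA28 alpha) had 468, 455 and 444 TPM in EgfrKO, 320.0, 324 and 323 TPM in Klf5KO and 504, 503 and 489 TPM in Smad4KO libraries, against 255, 254 and 198 TPM in WT libraries. Psme2 (PA28 beta) had 396, 375 and 376 TPM in EgfrKO, 269.8, 263 and 289 TPM in Klf5KO and 380.0, 358 and 368 TPM in Smad4KO libraries, against 212, 184 and 164 TPM in WT libraries. For both genes the Klf5KO libraries overlapped neither the other knockouts nor WT. Psme1 rose by 0.96 ± 0.08, 0.46 ± 0.08 and 1.09 ± 0.08 (SE) in EgfrKO, Klf5KO and Smad4KO libraries (limma, adjusted p = 4.07e-06, 0.000318 and 6.15e-07). Psme2 rose by 1.04 ± 0.08, 0.56 ± 0.08 and 0.98 ± 0.08 (limma, adjusted p = 2.17e-06, 7.06e-05 and 1.15e-06). In Klf5KO libraries neither rise was called with median-of-ratios scaling (0.10 and 0.20) or with the fibroblast list as a covariate (0.15 and 0.28). EgfrKO libraries exceeded Klf5KO libraries by 0.50 ± 0.08 for Psme1 and 0.48 ± 0.08 for Psme2 (limma, adjusted p = 0.000252 and 0.000278). Klf5KO libraries were lower than Smad4KO libraries, with log2 differences of -0.63 ± 0.08 and -0.43 ± 0.08 (limma, adjusted p = 2.68e-05 and 0.00044). These 4 differences between knockouts kept direction and call under every alternative tried. Psme2 has a retrogene copy, Psme2b, whose transcript matches that of Psme2 at 99.3% of 716 aligned bases. Psme2b had 10.01 to 13.3, 19.2 to 26.4 and 7.82 to 12.2 TPM in EgfrKO, Klf5KO and Smad4KO libraries, against 7.83 to 9.52 TPM in WT libraries, and the split of reads between the copies is uncertain.

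Across all 46 members tested, 35 were higher and 1 was lower in EgfrKO than in WT libraries, where 31.3% and 12% of all genes were. In Klf5KO libraries 36 were higher and 1 lower, where 55.2% and 11.1% of all genes were, and in Smad4KO libraries 22 were higher and 1 lower, where 32.2% and 17.4% of all genes were. After median-of-ratios scaling the members split 13 higher and 3 lower in EgfrKO (18% and 22.2% of all genes), 9 and 15 in Klf5KO (24.6% and 27.5%) and 13 and 6 in Smad4KO libraries (25.1% and 24.7%). The broad rise of the constitutive set thus depends on the scaling. The median difference of the 41 constitutive members was 0.25 in EgfrKO, 0.25 in Klf5KO and 0.13 in Smad4KO libraries, against an all-gene median of 0.14, 0.31 and 0.10, while that of the 5 inducible members was 1.75, 1.70 and 1.65. In all 3 knockouts 14 of the 46 members were called higher, where a smaller share, 14.2%, of all genes was. After median-of-ratios scaling these were Psmb8, Psmb9 and Psmb10 alone, where 5.54% of all genes were. In the moderated F test over the 4 genotypes, 45 of 46 members varied (82.7% of all genes did), and Psmg3, a 20S assembly chaperone, did not pass (limma, adjusted p = 0.064).

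**Figure D4:**
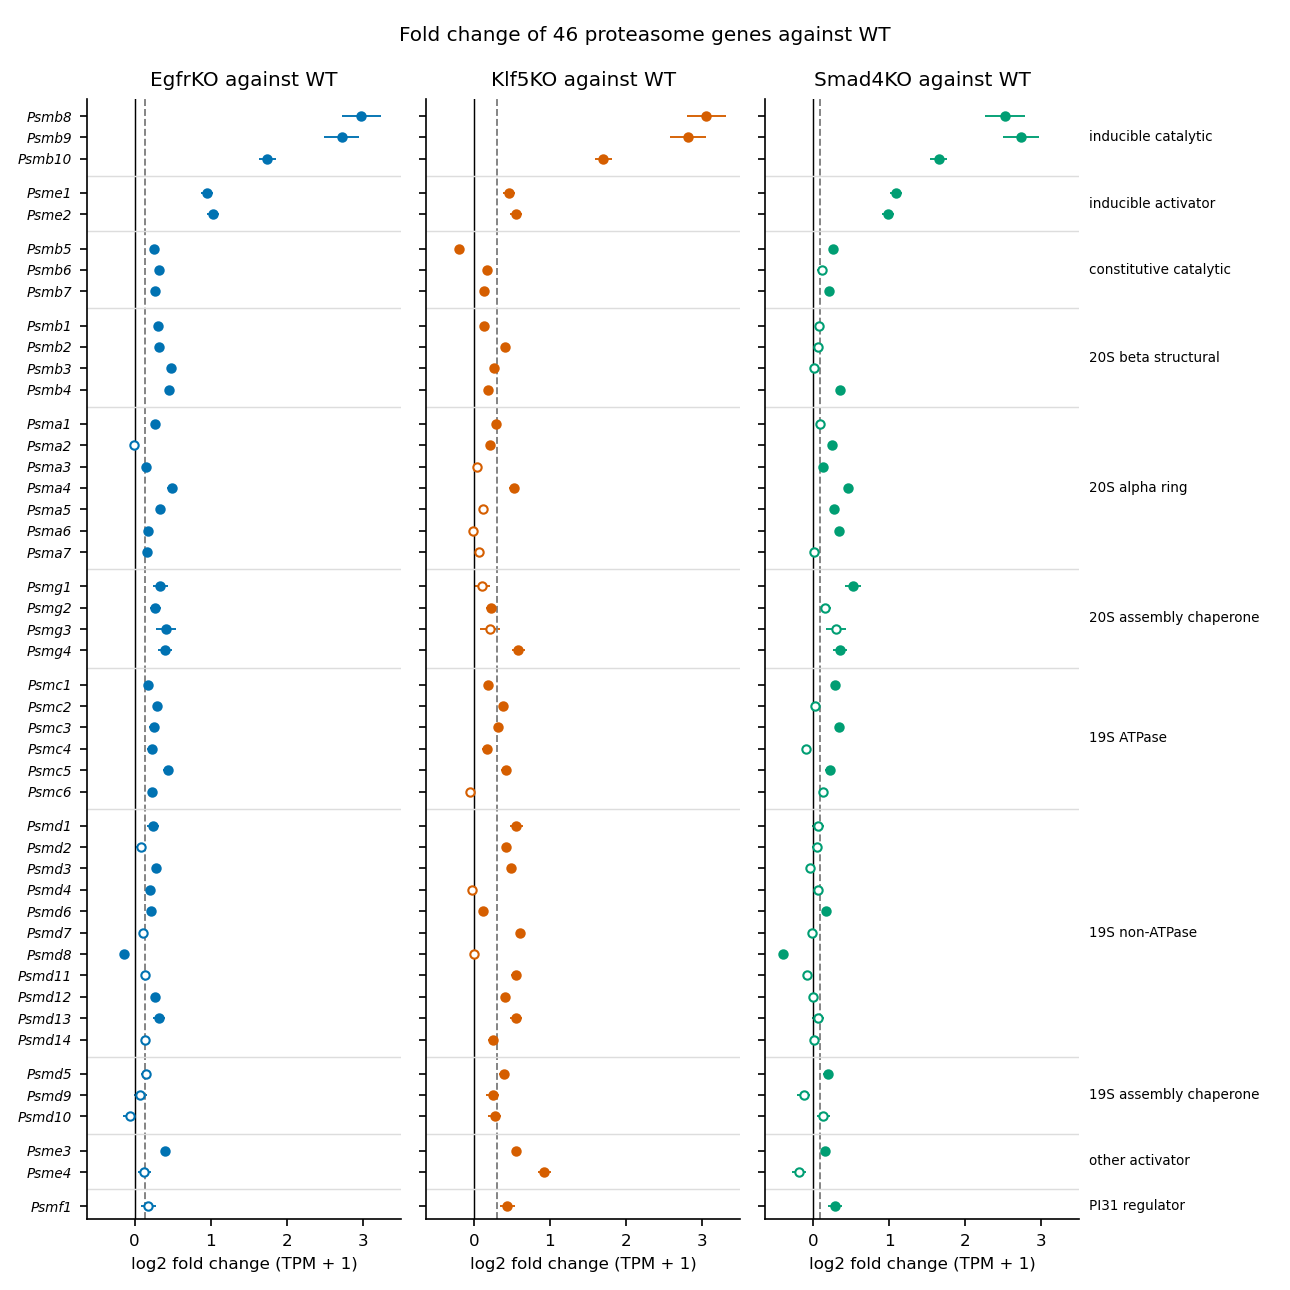
Log2 fold change of the 46 tested members against WT, with bars of 1 SE, grouped by role (n = 3 libraries per genotype); filled points have a limma adjusted p under 0.05, the solid line is 0 and the dashed line is the median of all genes tested. The 3 inducible catalytic genes lie between 1.65 and 3.05, and the highest constitutive member is Psme4 in Klf5KO libraries at 0.93.

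Among the 20S core genes, all 4 structural beta subunits rose in EgfrKO and in Klf5KO libraries and 1 rose in Smad4KO libraries, but after median-of-ratios scaling 3, 0 and 1 rose and 2 fell in Klf5KO libraries. Of all genes 31.3%, 55.2% and 32.2% rose in EgfrKO, Klf5KO and Smad4KO libraries, and 18%, 24.6% and 25.1% after that scaling. After it 22.2%, 27.5% and 24.7% of all genes fell. Psmb4 (beta7) had 404, 406 and 370.4 TPM in EgfrKO, 332, 322 and 322 TPM in Klf5KO and 378, 358 and 356 TPM in Smad4KO libraries, against 302, 280.3 and 275 TPM in WT libraries. It rose by 0.46 ± 0.05, 0.19 ± 0.05 and 0.35 ± 0.05 (SE; limma, adjusted p = 3.05e-05, 0.00571 and 0.000131), but in Klf5KO libraries the direction turned to -0.17 after median-of-ratios scaling. Psmb3 (beta3) was highest in EgfrKO libraries, with 358 to 367 TPM, against 242 to 271 TPM in WT libraries (0.48 ± 0.05; limma, adjusted p = 2.66e-05). Of the 7 alpha subunits, 6 rose in EgfrKO, 3 in Klf5KO and 5 in Smad4KO libraries, and none was called lower, but after median-of-ratios scaling 2, 0 and 3 rose, and 1 fell in EgfrKO and 4 fell in Klf5KO libraries. The 3 of 7 in Klf5KO libraries is a smaller share than that of all genes. Psma4 (alpha3) rose in all of them, with 215, 197 and 210.1 TPM in EgfrKO, 206, 221 and 207 TPM in Klf5KO and 207, 202 and 199.99 TPM in Smad4KO libraries, against 154, 156 and 132 TPM in WT libraries. Every knockout library was above every WT library, and the rise was 0.49 ± 0.06, 0.52 ± 0.06 and 0.46 ± 0.06 (limma, adjusted p = 0.000105, 2.75e-05 and 9.37e-05). In Klf5KO libraries it was not called after median-of-ratios scaling (0.17; limma, adjusted p = 0.0682) or with the fibroblast list as a covariate (0.40; adjusted p = 0.102). Annotated exons of Psma4 share 4.81% of their bases with another gene, AY074887, on the opposite strand. Psma2 and Psma6 (alpha2 and alpha1) had their highest means in Smad4KO libraries, with 290.1 to 305 and 227 to 238 TPM, against 234 to 261 and 177 to 196 TPM in WT libraries (0.25 ± 0.05 and 0.33 ± 0.05; limma, adjusted p = 0.000737 and 0.000222), though Psma2 was not called there after median-of-ratios scaling (0.14).

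The 4 assembly chaperones of the 20S core (Psmg1 to Psmg4) rose in EgfrKO libraries in 4 cases, in Klf5KO libraries in 2 and in Smad4KO libraries in 2. After median-of-ratios scaling 0, 0 and 1 did. The shares of all genes that rose were 31.3%, 55.2% and 32.2%, and 18%, 24.6% and 25.1% after that scaling. Psmg1, a partner of Psmg2 in alpha ring assembly, had its highest mean in Smad4KO libraries, with 33.6, 28.1 and 38.3 TPM, against 21.4, 24.2 and 22.3 TPM in WT libraries (0.53 ± 0.10; SE; limma, adjusted p = 0.00127). All 3 Smad4KO libraries were above the WT libraries, though they differed among themselves more than the WT libraries did. Psmg4, a partner of Psmg3, had 114, 112 and 131 TPM in EgfrKO, 134, 126 and 146 TPM in Klf5KO and 108, 112 and 126 TPM in Smad4KO libraries, against 101, 82.9 and 85.7 TPM in WT libraries. It rose by 0.41 ± 0.09, 0.59 ± 0.09 and 0.36 ± 0.09 (limma, adjusted p = 0.00407, 0.000156 and 0.00649). No knockout group overlapped WT, and after median-of-ratios scaling the direction held but none of the 3 was called.

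Of the 11 non-ATPase subunits of the 19S cap, 6 rose and 1 fell in EgfrKO, 9 rose in Klf5KO, and 1 rose and 1 fell in Smad4KO libraries; after median-of-ratios scaling 0 rose and 1 fell, 4 rose and 3 fell, and 0 rose and 3 fell. All 6 ATPase subunits (Psmc genes), which form the unfolding ring, rose in EgfrKO libraries, against 5 in Klf5KO and 3 in Smad4KO libraries, but 1, 0 and 2 did after median-of-ratios scaling and 3 fell in Klf5KO libraries. Among all genes 31.3%, 55.2% and 32.2% rose and 12%, 11.1% and 17.4% fell before that scaling in EgfrKO, Klf5KO and Smad4KO libraries. After it 18%, 24.6% and 25.1% rose and 22.2%, 27.5% and 24.7% fell. The 27.3% of non-ATPase subunits that then fell in Klf5KO and in Smad4KO libraries was near these shares. Psmd7 (Rpn8), the lid partner of the deubiquitinase subunit, had 203, 192 and 186 TPM in Klf5KO libraries, against 129, 123 and 127 TPM in WT libraries (0.61 ± 0.05; SE; limma, adjusted p = 1.70e-06; 0.25 and still called after median-of-ratios scaling). Psmd8 (Rpn12), another lid subunit, went the other way, with 198, 191 and 184 TPM in EgfrKO, 209.7, 209.9 and 211 TPM in Klf5KO and 155, 170.5 and 153 TPM in Smad4KO libraries, against 213, 204 and 212 TPM in WT libraries. It fell by 0.39 in Smad4KO libraries (SE 0.05; limma, adjusted p = 3.51e-05) with no overlap with WT, and was lower in every scaling tried. In EgfrKO libraries its difference was -0.13 ± 0.05 (limma, adjusted p = 0.0397), a call lost on leaving out any 1 of 5 libraries, EgfrKO replicate 2 or 3, Klf5KO replicate 3 or WT replicate 1 or 3 (adjusted p of 0.054 to 0.121). After median-of-ratios scaling it was called lower in all 3, at -0.28, -0.35 and -0.50 in EgfrKO, Klf5KO and Smad4KO libraries, and was the 1 member so, where 8% of all genes were. Without Smad4KO replicate 2 or WT replicate 3, 2 members were lower in Smad4KO libraries. Mean TPM of the 17 19S subunits over that of the 7 alpha subunits was 0.63 to 0.65 in EgfrKO, 0.66 to 0.74 in Klf5KO and 0.56 to 0.60 in Smad4KO libraries, against 0.63 to 0.68 in WT libraries. Smad4KO libraries were the lowest of the 4 genotypes on this ratio.

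The other activators and PI31 had their highest mean TPM in Klf5KO libraries. After median-of-ratios scaling only Psme4 did. Psme3 was then higher in EgfrKO and Psmf1 in Smad4KO than in Klf5KO libraries, though neither difference was called. Psme4 (PA200, a nuclear activator that caps the 20S core) had 35.9, 36.1 and 32.7 TPM in EgfrKO, 68.4, 57.0 and 59.6 TPM in Klf5KO and 28.1, 31.0 and 24.8 TPM in Smad4KO libraries, against 30.5, 32.7 and 32.4 TPM in WT libraries. Only the Klf5KO libraries of Psme4 passed the threshold against WT among the 3 knockouts, with a rise of 0.93 ± 0.09 (SE; limma, adjusted p = 5.00e-06; 0.58 and called after median-of-ratios scaling, where Psme4 was also called lower in Smad4KO libraries, at -0.29). With the fibroblast list as a covariate it was 0.64 (limma, adjusted p = 0.0515). Psme3 (PA28 gamma, a nuclear relative of the PA28 chains) had 75.1 to 79.9 TPM in EgfrKO, 82.1 to 89.3 TPM in Klf5KO and 63.5 to 67.7 TPM in Smad4KO libraries, against 55.6 to 60.9 TPM in WT libraries. It rose in all 3 (0.41 ± 0.05, 0.55 ± 0.05 and 0.16 ± 0.05; limma, adjusted p = 0.000132, 5.83e-06 and 0.0263). It was not called in Smad4KO libraries after median-of-ratios scaling (0.056) or in Klf5KO libraries with the fibroblast list as a covariate (0.40; limma, adjusted p = 0.0502). Psmf1 had 16.6, 15.7 and 13.5 TPM in EgfrKO, 20.8, 17.0 and 17.6 TPM in Klf5KO and 15.4, 18.0 and 15.9 TPM in Smad4KO libraries, against 13.2, 13.2 and 13.4 TPM in WT libraries. It rose in Klf5KO and Smad4KO libraries (0.44 ± 0.09 and 0.29 ± 0.09; limma, adjusted p = 0.00149 and 0.0256) and gave 0.18 ± 0.09 (adjusted p = 0.139) in EgfrKO libraries. In Klf5KO libraries the call was lost after median-of-ratios (0.11) and quantile scaling (0.071) and with the fibroblast covariate (0.13), and in Smad4KO libraries after quantile scaling (0.12). The 3 chaperones of 19S assembly (Psmd5, Psmd9 and Psmd10) all rose in Klf5KO libraries, by 0.25 to 0.40, 0 did in EgfrKO libraries and 1 in Smad4KO libraries. Of all genes 55.2%, 31.3% and 32.2% rose in the same order, and the all-gene median in Klf5KO libraries, 0.31, lay within that range. In Klf5KO libraries none of the 3 chaperones was called after either other scaling. Psmd9 turned to -0.09 and -0.10 and Psmd10 to -0.07 and -0.05 under median-of-ratios and quantile scaling. Psmd9 shares 25.5% of its exon bases with Gm26745 on the other strand.

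Direct comparisons of the knockouts were read beside the shares of all genes. In Klf5KO libraries 20 members (43.5%) were higher and 9 (19.6%) lower than in Smad4KO libraries, near the 45.5% and 18.3% of all genes. After median-of-ratios scaling 10 members were higher and 19 lower, where 29.1% and 31.2% of all genes were. The largest rise was that of Psme4, at 1.11 ± 0.09 (SE; limma, adjusted p = 6.76e-07), followed by Psmd11 (Rpn6, a lid scaffold subunit) at 0.63 ± 0.06 (adjusted p = 1.74e-06). Psmd11 had 125, 112 and 119 TPM in Klf5KO and 72.8, 80.7 and 75.9 TPM in Smad4KO libraries, with no overlap. The largest decreases were those of Psme1 (above) and Psmb5, at -0.46 ± 0.05 (limma, adjusted p = 1.76e-05), and all 4 of these kept direction and call after median-of-ratios scaling. With the fibroblast list as a covariate Psme4 and Psmd11 gave 0.72 and 0.50 and were no longer called. Of the 11 non-ATPase subunits 9 were higher in Klf5KO libraries and 0 lower, and 8 and 2 after median-of-ratios scaling. None of the 3 constitutive catalytic genes was higher and Psmb5 was lower.

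**Figure D5:**
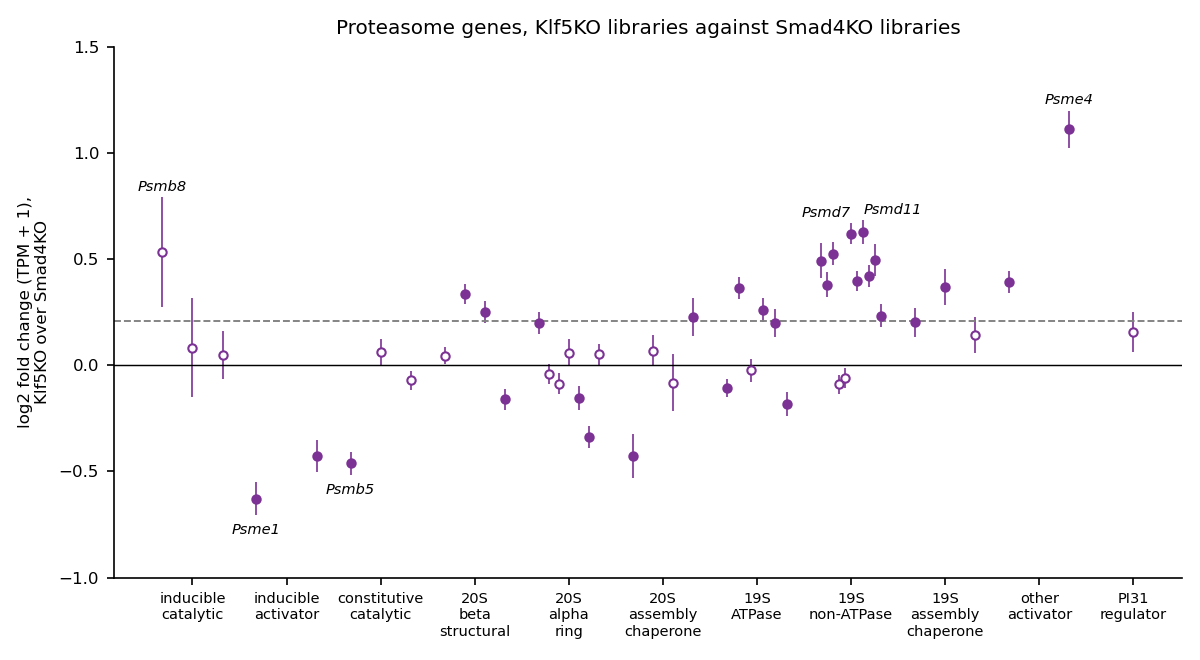
Log2 fold change of the 46 tested members, Klf5KO over Smad4KO libraries (n = 3 each), with bars of 1 SE, by role; filled points have a limma adjusted p under 0.05, the solid line is 0 and the dashed line is the median of all genes, 0.21. Psme4 is highest at 1.11 and Psme1 lowest at -0.63, and 9 of the 11 non-ATPase 19S genes are filled points above 0.

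In EgfrKO libraries 11 members were higher and 14 lower than in Klf5KO libraries, where 14.7% and 40.5% of all genes were, and median-of-ratios scaling moved this split to 23 and 4 (26.4% and 25.3% of all genes). Without EgfrKO replicate 2 or Klf5KO replicate 1, 9 members were lower. Apart from the PA28 pair, the extremes were Psme4, lower in EgfrKO libraries with a log2 difference of -0.80 ± 0.09 (SE; limma, adjusted p = 1.96e-05), and Psmd7, at -0.50 ± 0.05 (adjusted p = 9.46e-06). Both kept direction and call after median-of-ratios scaling. Against Smad4KO libraries, EgfrKO libraries had 17 members higher and 2 lower, where 18.7% and 14.5% of all genes were (15 and 5 after median-of-ratios scaling, where 16.5% and 19.6% were). Without EgfrKO replicate 1, 10 were higher. The largest called rises there were those of Psmb3, with 358 to 367 TPM in EgfrKO against 258 to 269.6 TPM in Smad4KO libraries (0.46 ± 0.05; limma, adjusted p = 4.28e-05), and Psmd3. Psmd3 (Rpn3, a lid subunit) had 137 to 154 TPM in EgfrKO against 110.1 to 121 TPM in Smad4KO libraries (0.33 ± 0.05; limma, adjusted p = 0.00068). The 2 members lower in EgfrKO libraries were Psma2 and Psma6 (-0.26 ± 0.05 and -0.15 ± 0.05; limma, adjusted p = 0.00111 and 0.0397). The count lower was 1 without EgfrKO replicate 2 or 3, Klf5KO replicate 3 or Smad4KO replicate 1, and 3 without EgfrKO replicate 1, Klf5KO replicate 1 or WT replicate 3.

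Genes that work beside the proteasome were followed as lists. Of 10 genes that supply and load class I peptides, 7 rose in EgfrKO, 10 in Klf5KO and 9 in Smad4KO libraries and none was called lower (31.3%, 55.2% and 32.2% of all genes rose). After median-of-ratios scaling 2 were called lower in EgfrKO libraries, where 22.2% of all genes were. Nlrc5, the transactivator of MHC class I and of Psmb9, had 21.6 to 27.0, 40.6 to 50.6 and 20.5 to 23.3 TPM in EgfrKO, Klf5KO and Smad4KO libraries, against 3.51 to 7.79 TPM in WT libraries. It rose in each knockout (2.05 ± 0.19, 2.85 ± 0.19 and 1.87 ± 0.19; limma, adjusted p = 1.09e-05, 5.25e-07 and 1.04e-05). Tap1, which shares the printed interval with Psmb9, had 140.2, 129.6 and 121 TPM in EgfrKO, 208, 157 and 184 TPM in Klf5KO and 133, 132 and 142 TPM in Smad4KO libraries, against 34.7, 27.1 and 14.6 TPM in WT libraries. Its ratio of means to WT was 5.13, 7.20 and 5.33 in that order. As with Psmb9, WT replicate 3 was the lowest library and WT replicate 1 the highest WT library. Tap2 (ratio to WT 6.08, 6.08 and 5.74) and Erap1, the peptide trimming enzyme (2.27, 3.77 and 2.74), were called higher in all 3 knockouts as well.

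Of 9 genes of interferon gamma signalling, 6 rose and 2 fell in EgfrKO, 7 rose and 1 fell in Klf5KO, and 6 rose and 3 fell in Smad4KO libraries, where 31.3% and 12%, 55.2% and 11.1%, and 32.2% and 17.4% of all genes did. Irf1, a transcription factor induced by interferon gamma, had 152 to 175, 152 to 167 and 140.1 to 157 TPM in EgfrKO, Klf5KO and Smad4KO libraries, against 66.7 to 79.0 TPM in WT libraries. Irf1 rose in each (1.19 ± 0.08, 1.17 ± 0.08 and 1.07 ± 0.08; limma, adjusted p = 1.07e-06, 4.20e-07 and 5.93e-07). Socs3, a feedback inhibitor of cytokine receptors, fell in all 3 (-0.13 ± 0.04, -0.61 ± 0.04 and -0.32 ± 0.04; limma, adjusted p = 0.032, 6.57e-07 and 8.14e-05). The kinase genes Jak1 and Jak2, named after their values were seen, rose in Klf5KO libraries (0.42 ± 0.06 and 0.62 ± 0.08) and fell in Smad4KO libraries (-0.51 ± 0.06 and -0.25 ± 0.08), with the same directions after median-of-ratios scaling, though Jak1 in Klf5KO libraries was then not called (0.070).

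The known regulators of the constitutive subunits moved in both directions. Of 7 genes, 0 rose and 3 fell in EgfrKO, 3 rose and 3 fell in Klf5KO, and 2 rose and 2 fell in Smad4KO libraries. After median-of-ratios scaling 0 rose and 4 fell, 2 rose and 4 fell, and 2 rose and 5 fell in the same order, where 18% and 22.2%, 24.6% and 27.5%, and 25.1% and 24.7% of all genes did. Nfe2l1, the factor that raises constitutive proteasome subunit genes when the proteasome is inhibited, had 105 to 113, 137 to 159 and 88.8 to 97.7 TPM in EgfrKO, Klf5KO and Smad4KO libraries, against 95.7 to 103 TPM in WT libraries. It rose in Klf5KO libraries (0.57 ± 0.06; SE; limma, adjusted p = 1.04e-05; 0.21 and called after median-of-ratios scaling). Ddi2, the protease that activates it, rose there too, at 45.0 to 53.1 TPM against 28.4 to 29.5 TPM in WT libraries (0.73 ± 0.09; limma, adjusted p = 2.23e-05). It fell in EgfrKO and Smad4KO libraries (-0.27 ± 0.09 and -0.40 ± 0.09; limma, adjusted p = 0.0239 and 0.00238). Maff, a small Maf partner of these factors, had 58.4 to 62.1, 56.4 to 75.0 and 63.0 to 68.9 TPM, against 131 to 162 TPM in WT libraries. It fell in all 3 (-1.24 ± 0.10, -1.18 ± 0.10 and -1.14 ± 0.10; limma, adjusted p = 3.39e-06, 2.14e-06 and 2.57e-06).

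Of 13 further genes of proteasome assembly, transport and delivery, 11 were found by symbol, and 1 rose and 3 fell in EgfrKO, 6 rose and 1 fell in Klf5KO, and 1 rose and 2 fell in Smad4KO libraries. Median-of-ratios scaling turned these to 0 and 5, 3 and 5, and 0 and 5, so that more genes fell than rose in each knockout. Among all genes 31.3%, 55.2% and 32.2% rose before that scaling and 18%, 24.6% and 25.1% after it. The shares of all genes that fell were 12%, 11.1% and 17.4% before it and 22.2%, 27.5% and 24.7% after it. More genes thus fell than rose over all genes too in EgfrKO and Klf5KO libraries after that scaling. Ubqln1, a shuttle for ubiquitinated substrates, had 54.1 to 57.0, 101 to 114 and 65.4 to 70.0 TPM in EgfrKO, Klf5KO and Smad4KO libraries, against 70.0 to 76.6 TPM in WT libraries. It fell in EgfrKO (-0.39 ± 0.06; limma, adjusted p = 0.000242) and rose in Klf5KO libraries (0.54 ± 0.06; adjusted p = 9.10e-06). Ube3c, a ubiquitin ligase bound to the proteasome, rose in Klf5KO libraries (0.63 ± 0.07; limma, adjusted p = 1.43e-05). Akirin2, which brings assembled proteasomes into the nucleus, fell in EgfrKO and Smad4KO libraries (-0.24 ± 0.05 and -0.47 ± 0.05; limma, adjusted p = 0.00334 and 1.60e-05). Of 5 genes of ubiquitin supply and activation, 2 rose and 2 fell in EgfrKO, 1 rose and 3 fell in Klf5KO and 2 fell in Smad4KO libraries. Rps27a, which encodes ubiquitin fused to a ribosomal protein, fell in Klf5KO libraries (-0.41 ± 0.05; limma, adjusted p = 1.79e-05). Uba1, the main activating enzyme, rose there (0.41 ± 0.06; limma, adjusted p = 0.000159) and fell in EgfrKO and Smad4KO libraries (-0.25 ± 0.06 and -0.28 ± 0.06; adjusted p = 0.00871 and 0.0036). After median-of-ratios scaling none of the 5 rose in any knockout, and 2, 4 and 2 fell in EgfrKO, Klf5KO and Smad4KO libraries, Uba1 in Klf5KO libraries giving 0.056 and no call.

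Leukocytes carry immunoproteasomes without stimulation, so the markers of other cells are given beside the inducible genes. Of 7 general leukocyte genes, 3 rose and 1 fell in EgfrKO, 6 rose in Klf5KO, and 2 fell in Smad4KO libraries (31.3%, 55.2% and 32.2% of all genes rose), with sums of 242 to 247, 235 to 362 and 68.5 to 150 TPM, against 140 to 218 TPM in WT libraries. After median-of-ratios scaling 1 leukocyte gene rose in EgfrKO and 1 in Klf5KO libraries, where 18% and 24.6% of all genes did. Of 8 macrophage genes, 0 were called in EgfrKO or Klf5KO libraries and 2 fell in Smad4KO libraries, with sums of 1234 to 1331, 1043 to 1668 and 182 to 804 TPM, against 733 to 1459 TPM in WT libraries. Smad4KO replicate 2, with the lowest sums of both lists, had 236 TPM of Psmb8 and 240.5 TPM of Psmb9, the lowest of the Smad4KO libraries but above every WT library. Its sum of T and NK cell genes, 9.44 TPM, was also above every WT library. These are values of 1 library, and the part of any of these cells was not tested. Of the T and NK cell genes tested, 5, 5 and 3 of 8 rose in EgfrKO, Klf5KO and Smad4KO libraries and none fell, where 31.3%, 55.2% and 32.2% of all genes rose. The same counts rose after median-of-ratios scaling, where 18%, 24.6% and 25.1% of all genes did. The sums of the T and NK cell list were 13.1 to 14.5, 14.1 to 21.0 and 9.44 to 13.4 TPM, against 2.89 to 6.94 TPM in WT libraries. The sum of this low-level list, like each inducible catalytic gene, was thus higher in every knockout library than in every WT library. Cd3e, Cd3g and Nkg7 were each listed at 0 in 1 WT library, and the part of T and NK cells in the result was not tested. All 7 fibroblast genes rose in Klf5KO libraries (4 after median-of-ratios scaling), and with that list as a covariate 6 members were higher and 0 lower in Klf5KO than in WT libraries (8.07% and 2.82% of all genes), Psmb8, Psmb9 and Psmb10 among them. Dendritic cell genes rose in 2, 3 and 0 of 3 tested cases, and endothelial genes in 2, 2 and 0 of 2, in EgfrKO, Klf5KO and Smad4KO libraries. Of the 6 epithelial genes 3, 1 and 6 were higher and 1, 4 and 0 lower in the same order. The part of these cells in the proteasome values was not tested.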

How the data were processed

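RNA from 12 libraries (4 genotypes, 3 libraries each) had been quantified by the authors with Salmon on mm10, per the submitters' processing notes; its version, annotation and strand setting are not stated. The deposited values are TPM per gene symbol for 24493 symbols, and every library summed to between 999999.91 and 1000000.1, so read depth is unknown. Here log2(TPM + 1) was analysed for the 13662 genes with at least 1 TPM in at least 3 libraries. limma 3.58.1 in R 4.3.3 fitted 1 model of the 4 genotype means with a trend in the spread. Benjamini-Hochberg adjustment ran over all tested genes within each of 6 contrasts, with a threshold of 0.05. A fold change on this scale understates the change of low genes. The 9 ratio differences were tested by exact two-sided permutation. Sequences were read from RefSeq tables of GRCm38.p6 (the assembly also called mm10) with Python 3.11.15, exon overlaps came from GENCODE M21, and transcript copies were aligned with Biopython 1.88. The fit was tested on simulated data.

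The members, lists, roles and tests were chosen with earlier results of these data known. Besides the 8 inducible and constitutive catalytic or PA28 genes, the rule named the members with the extreme mean levels, the 3 largest called changes in each direction against WT, the 2 in each direction between knockouts, and up to 3 genes of each partner list by adjusted p. Some genes that the rule named are not reported here. Tap1, Jak1, Jak2 and the role examples outside this rule were named after their values were seen. Alternatives were another pseudocount (0.1), no filter and a filter at 5 TPM, median-of-ratios and quantile scaling, leaving out the 20 most abundant genes, no trend, a fit of only the groups compared, a replicate block, leukocyte, fibroblast and macrophage lists as covariates, and leaving out each library.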

Additional observations from a re-analysis of the deposited data

How the results depend on the processing

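For 87 results on single members, 1929 of 2088 values under the alternatives kept direction and side of the threshold, 148 lost the call (51 of these on leaving out a library) and 11 changed direction. Nearly all of these results were chosen as called ones, so this tally cannot show calls gained. The fibroblast and macrophage covariates were chosen after seeing the data. Where no value shows the cause of a change, the cause was not tested. Shares of all genes were computed only for the main fit, median-of-ratios scaling and the fibroblast covariate in Klf5KO against WT libraries. For the other counts below, a change particular to the members cannot be told from a change in all genes. Median-of-ratios scaling gave, higher and lower, 13 and 3 members in EgfrKO, 9 and 15 in Klf5KO and 13 and 6 in Smad4KO against WT libraries; 23 and 4 in EgfrKO against Klf5KO; 10 and 19 in Klf5KO against Smad4KO; and 5 lower in EgfrKO against Smad4KO libraries. With it the median of the constitutive set was 0.10, -0.091 (a change of direction) and 0.019 in EgfrKO, Klf5KO and Smad4KO libraries, and that of the inducible genes in Klf5KO libraries was 1.35. It turned Psmb6 to -0.18, Psmb7 to -0.22, Psmb4 to -0.17, Psmb3 to -0.088, Psma2 to -0.15 and Psmd9 to -0.091 (-0.096 with quantile scaling) in Klf5KO against WT, Psmd8 to 0.068 and Psmd3 to 0.0084 in EgfrKO against Klf5KO, and Psmg4 to -0.020 in Klf5KO against Smad4KO libraries. Quantile scaling gave 5 lower in Klf5KO and 5 in Smad4KO against WT, 19 higher and 5 lower in EgfrKO against Klf5KO, 13 higher and 14 lower in Klf5KO against Smad4KO libraries, and constitutive medians of 0.17, 0.071 and 0.060. Leaving out the 20 most abundant genes gave a constitutive median of 0.21 in EgfrKO libraries.

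Every Klf5KO library was above all others on the summed fibroblast list, so the list and the Klf5KO label cannot be told apart in fits with that covariate. The fibroblast covariate gave 6 higher and 0 lower in Klf5KO against WT, 4 and 2 in EgfrKO against Klf5KO, 6 higher in EgfrKO against Smad4KO, and 1 and 4 in Klf5KO against Smad4KO libraries. With it the constitutive medians were 0.15 in Klf5KO and 0.16 in Smad4KO libraries, the inducible median in Klf5KO libraries was 1.16, and Psmf1 turned to 0.0013 in EgfrKO against Klf5KO libraries. The leukocyte covariate gave 0 lower in EgfrKO and 3 in Smad4KO against WT, 7 higher in EgfrKO against Smad4KO and 13 higher in Klf5KO against Smad4KO libraries. The macrophage covariate gave 0 lower in EgfrKO and 2 in Smad4KO against WT, 11 higher in EgfrKO against Smad4KO and 5 lower in Klf5KO against Smad4KO libraries. Without a trend in the spread, 0 members were lower in EgfrKO against WT and 1 in EgfrKO against Smad4KO libraries. A fit of only the groups compared called 1 inducible catalytic gene, Psmb8, in EgfrKO and in Klf5KO against Smad4KO libraries.

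Leaving out a library gave 0 to 1 members lower in EgfrKO and 1 to 2 in Smad4KO against WT, 9 to 14 lower in EgfrKO against Klf5KO (9 without EgfrKO replicate 2 or Klf5KO replicate 1), 10 to 18 higher (10 without EgfrKO replicate 1) and 1 to 3 lower in EgfrKO against Smad4KO, and a constitutive median of 0.071 (without WT replicate 3) to 0.14 in Smad4KO libraries. It gave 0 to 1 inducible catalytic genes called in EgfrKO and 0 to 1 in Klf5KO against Smad4KO libraries, the 1 being Psmb8 without WT replicate 3 and, for Klf5KO, also without WT replicate 1. Klf5 in Klf5KO against WT libraries lost its call with no filter, no trend, the fit of only the groups compared or the replicate block (-0.25 in each), with the leukocyte (-0.059), fibroblast (-0.15) and macrophage (-0.20) covariates, and without 1 of 6 single libraries (-0.34 to -0.13 over all 12). The replicate numbers did not pair the libraries: the deviations of same-numbered libraries correlated at -0.15 to 0.12 over 18 pairs, with 1 over 0.1. A replicate block gave 0 members lower in EgfrKO against WT libraries and changed no other count of members by more than 1.5 times. Depth limits could not be set from TPM.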
